A study of Mus musculus with 3 samples.

Results

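CC chemokine ligands are small secreted proteins that draw leukocytes along a concentration gradient, and macrophages are one of their main sources in inflamed tissue. The 10 ligand genes described here, Ccl2, Ccl3, Ccl4, Ccl5, Ccl6, Ccl7, Ccl9, Ccl12, Ccl22 and Ccl24, were chosen by gene symbol, out of 55536 annotated genes measured. The libraries hold total RNA, depleted of ribosomal RNA, from the cytosolic fraction of C57BL/6J mouse macrophages grown from bone marrow. The cells were first exposed to Lipid A, the part of bacterial lipopolysaccharide that activates Toll-like receptor 4, at 100 ng/ml for 12 h. After a washout of 12 h they were exposed again to 100 ng/ml Lipid A, for 30 min. The labels give 1 group with 3 biological replicates and 1 µg of RNA per library. Sex and age were not collected, and all 3 libraries carry the same donor entry, so SDs and p-values measure only how far these samples differ, and that spread may be technical. No unstimulated, singly stimulated or nuclear sample was used here, so each value is a level at this time point and not a response to Lipid A.

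Each CC ligand binds receptors of the CCR family, which signal through inhibitory G proteins and turn the cell towards the source of ligand. Ccl3 and Ccl5 bind CCR1. Together with Ccl4 they attract monocytes, macrophages and T cells. Ccl2, Ccl7 and Ccl12 are the monocyte chemoattractant proteins and act through CCR2, which releases monocytes from bone marrow and brings them into tissue. In macrophages treated with lipopolysaccharide, many of these genes are known targets of NF-kB or of the interferon response that follows Toll-like receptor 4 signalling.

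Of the 10 ligands, 9 were detected, that is, had at least 1 TPM in every library, against 17.2% of all annotated genes. TPM is the share of a library held by a gene once reads are divided by transcript length, and it is the scale on which genes are compared here. Together the ligands held 6273, 5956 and 5738 TPM in replicates 1, 2 and 3, which was 2.06 ± 0.0969% of the TPM of nuclear protein-coding genes (SD, n = 3). Ccl5 alone held 74.7%, 81.5% and 84.7% of the sum. Without Ccl5 the other 9 ligands summed to 1585, 1100 and 878 TPM, so the sum without it was highest in replicate 1 and lowest in replicate 3.

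Ccl5 (RANTES; ENSMUSG00000035042.2, mm10 chromosome 11, 83525778 to 83530518, minus strand) was measured at 4688, 4856 and 4860 TPM in replicates 1, 2 and 3. The mean was 4801 ± 98.1 TPM (SD, n = 3). Its size depends on which RNAs share the scale: rescaled to nuclear protein-coding genes it was 16527 ± 882 TPM, and in the second deposited quantification 2092 ± 501 TPM. Its rank among nuclear protein-coding genes was 3, 4 and 5 in the 3 libraries, and it rested on expected counts of 67674, 151330 and 128966 reads. Its level thus stayed within a narrow band in all 3 libraries.

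Ccl3 (MIP-1 alpha; ENSMUSG00000000982.5, chromosome 11, 83647844 to 83649355, minus strand) stood at 399, 285 and 196 TPM, a mean of 293 ± 102 TPM. Ccl4 (MIP-1 beta; ENSMUSG00000018930.3, chromosome 11, 83662584 to 83664683, plus strand) stood at 389, 236 and 193 TPM, a mean of 273 ± 103 TPM. Both were high in replicate 1 and low in replicate 3, and their values overlapped. Within libraries Ccl5 exceeded Ccl3 by 4.09 ± 0.54 on the scale of log2(TPM + 1), which compresses differences between low values. In TPM, Ccl5 was 11.7, 17.1 and 24.8 times Ccl3 in replicates 1, 2 and 3. In expected counts, which are not divided by length, the ratios were smaller, at 6.62, 9.76 and 14.2. On both scales the ratio was lowest in replicate 1, where Ccl3 was highest in TPM. Ccl3 and Ccl4 differed by 0.11 ± 0.14, less than their spread, with Ccl3 higher in 3 of 3 libraries.

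Differences between 2 ligands were taken within each library and called when every library gave the same sign and the mean exceeded 3 SD. In an exact sign-flip test (two-sided), 3 libraries allow no p under 0.25, which was the p of each difference with 1 sign in all 3. Of 7 pairs of related ligands, 5 were called.

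Among the CCR2 ligands, Ccl7 (MCP-3; ENSMUSG00000035373.2, chromosome 11, 82045712 to 82047525, plus strand) was the highest, at 263, 169 and 142 TPM, a mean of 191 ± 63.3 TPM. Ccl2 (MCP-1; ENSMUSG00000035385.5, chromosome 11, 82035571 to 82037453, plus strand) was measured at 209, 147 and 111 TPM, a mean of 156 ± 49.8 TPM. Ccl12 (MCP-5, a mouse gene; ENSMUSG00000035352.3, chromosome 11, 82101845 to 82103400, plus strand) had 125.9, 72.0 and 73.65 TPM, a mean of 90.5 ± 30.6 TPM. All 3 genes were highest in replicate 1. Their order Ccl7, Ccl2, Ccl12 was the same in every library although the levels themselves overlapped between libraries. Ccl2 was below Ccl7 by a log2 difference of -0.29 ± 0.08, a ratio of 0.797, 0.867 and 0.781 in TPM. Ccl2 exceeded Ccl12 by 0.78 ± 0.22 and Ccl7 exceeded Ccl12 by 1.07 ± 0.14. All of these were called. Without replicate 1 the first 2 were -0.28 ± 0.11 and 0.80 ± 0.30, no longer above 3 SD.

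Ccl9 and Ccl6 are CCR1 ligands of rodents that myeloid cells make in the absence of stimulation. Ccl9 (ENSMUSG00000019122.8, chromosome 11, 83572919 to 83578636, minus strand) had 143.7, 143.9 and 123.8 TPM, a mean of 137 ± 11.6 TPM. Ccl6 (ENSMUSG00000018927.3, chromosome 11, 83587882 to 83593087, minus strand) had 52.7, 44.9 and 36.1 TPM, a mean of 44.6 ± 8.31 TPM. Ccl6 was below Ccl9 in every library, by a log2 difference of -1.61 ± 0.17, which was called. With protein-coding transcripts alone it was -0.73 ± 0.05, also called. Both genes were lowest in replicate 3.

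Ccl22 and Ccl24 are ligands of CCR4 and CCR3, which attract regulatory and type 2 helper T cells and eosinophils. Ccl22 (MDC; ENSMUSG00000031779.3, chromosome 8, 94745590 to 94751699, plus strand) had 1.62, 2.41 and 1.37 TPM, a mean of 1.80 ± 0.543 TPM, from 154, 480 and 230 expected counts. Ccl24 (eotaxin-2; ENSMUSG00000004814.10, chromosome 5, 135569937 to 135573049, minus strand) had 0.41, 0.11 and 0.37 TPM from 13, 11 and 23 counts, and was the ligand that was not detected. Its 95% credible bounds in the authors' deposited table were 0.196 and 0.808 TPM in replicate 1, 0.0689 and 0.305 in replicate 2, and 0.218 and 0.628 in replicate 3. The pair differed by -1.10 ± 0.45 for Ccl24 minus Ccl22, not above 3 SD. Without replicate 2 the difference was -0.84 ± 0.07, which was called.

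**Figure D1:**
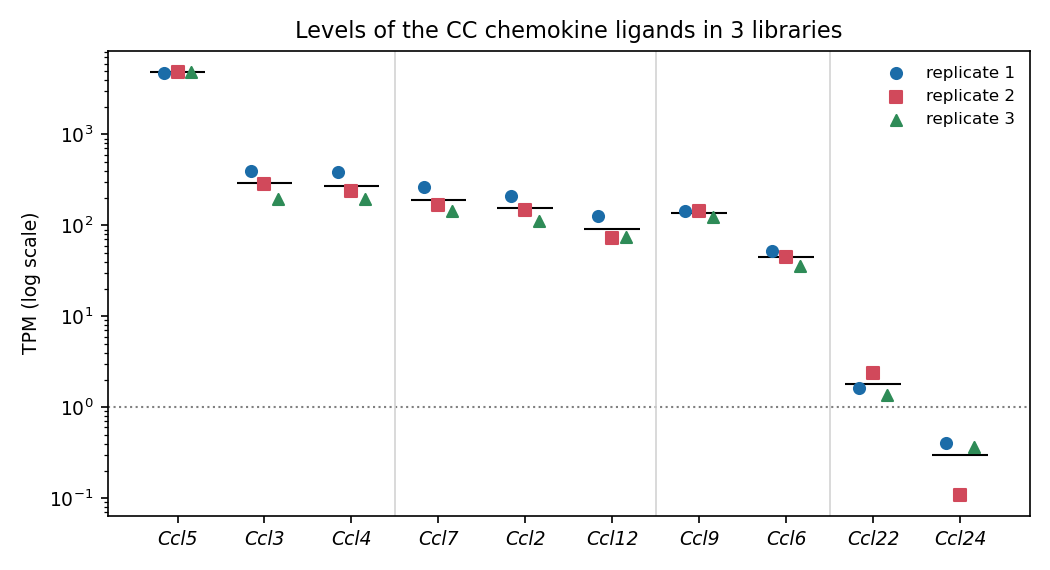
TPM of the 10 CC chemokine ligands (logarithmic axis) in replicates 1, 2 and 3, with a horizontal bar at the mean and a dotted line at 1 TPM. Vertical lines part the group of Ccl5, Ccl3 and Ccl4, the ligands of CCR2, the pair Ccl9 and Ccl6, and the pair Ccl22 and Ccl24. Ccl5, at 4688 to 4860 TPM, lies far above the others, and all 3 values of Ccl24 lie below the line.

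In order of mean TPM the ligands ran Ccl5, Ccl3, Ccl4, Ccl7, Ccl2, Ccl9, Ccl12, Ccl6, Ccl22, Ccl24, and 5 of the 9 steps between neighbours exceeded 3 SD. Those steps were Ccl5 to Ccl3, Ccl4 to Ccl7 (0.49 ± 0.06), Ccl7 to Ccl2, Ccl12 to Ccl6 (0.97 ± 0.29) and Ccl6 to Ccl22 (4.02 ± 0.31). The step from Ccl12 to Ccl6 was 0.96 ± 0.40 without replicate 3 and was then not called. Neighbours that did not differ beyond their spread were Ccl3 and Ccl4, Ccl2 and Ccl9 (0.14 ± 0.36), Ccl9 and Ccl12 (0.64 ± 0.41), and Ccl22 and Ccl24. Ccl2 exceeded Ccl9 in 2 of 3 libraries and the mean difference was -0.063 without replicate 1. Ccl9 minus Ccl12 was 0.87 ± 0.18 without replicate 1 and was then called. With all libraries the ligands formed steps at the top and at the bottom of the order, and in between Ccl9 was not separated from Ccl2 above it or from Ccl12 below it.

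Most ligands differed between the libraries by more than counting noise. The test was a chi-square test of rounded expected counts, given library sizes scaled by TMM (trimmed mean of M-values), with Benjamini-Hochberg adjustment over all 13410 genes whose count averaged 10 or more. It called 9 of the 10 ligands, against 64.8% of all genes tested. The median distance between the highest and the lowest library was 0.86 on the log2 scale over the 10 ligands and 0.31 over all genes tested. Ccl3 had the largest spread of the detected ligands, 1.98-fold between libraries in CPM, the count scaled to library size, more than 97.0% of genes whose count averaged 100 or more. Ccl4 varied 1.95-fold, Ccl22 1.84-fold, Ccl2 1.83-fold, Ccl7 1.80-fold and Ccl12 1.63-fold. Ccl6 varied 1.41-fold and Ccl9 1.31-fold.

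Ccl5 varied 1.13-fold, more than 29.0% of those genes, and was still called at its depth (adjusted p = 9.97e-143 by the chi-square test). Its biological coefficient of variation, estimated in edgeR, was 0.134, against 0.153 for genes of like abundance, whereas that of Ccl3 was 0.211 against 0.135. Ccl24 was not called (adjusted p = 0.0562 by the same test), but was called without replicate 1 (adjusted p = 0.0308) and in the second deposited quantification (adjusted p = 0.00924). Ccl12 was not called without replicate 1 (adjusted p = 0.75), and Ccl22 and Ccl24 were not called without replicate 2 (adjusted p = 0.203 and 0.989). The called spread of Ccl12 and of Ccl22 each rested on 1 library.

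The direction of the spread was shared. On TMM-scaled CPM, 8 of the 10 ligands were lowest in replicate 3, against 33.8% of all genes tested. Ccl5 was lowest in replicate 1 and Ccl24 in replicate 2, against 33.5% and 32.7% of all genes. On the deposited TPM the number was 7, since Ccl12 was then lowest in replicate 2. With 0.5 added to each count, replicate 1 was the highest for 8 ligands, against 31.2% of all genes tested. Ccl5 and Ccl22 were highest in replicate 2, against 34% of all genes, and 0 ligands were highest in replicate 3, against 34.8%. Ccl24 had 0.460, 0.196 and 0.464 CPM in replicates 1, 2 and 3 without that addition, so 7 ligands were then highest in replicate 1 and its place among the 8 rests on near-equal values. The median deviation of the ligands from their own means was 0.42 in replicate 1, 0.04 in replicate 2 and -0.34 in replicate 3 on the log2 scale, and that of all genes tested was within 0.01 of 0 in each.

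**Figure D2:**
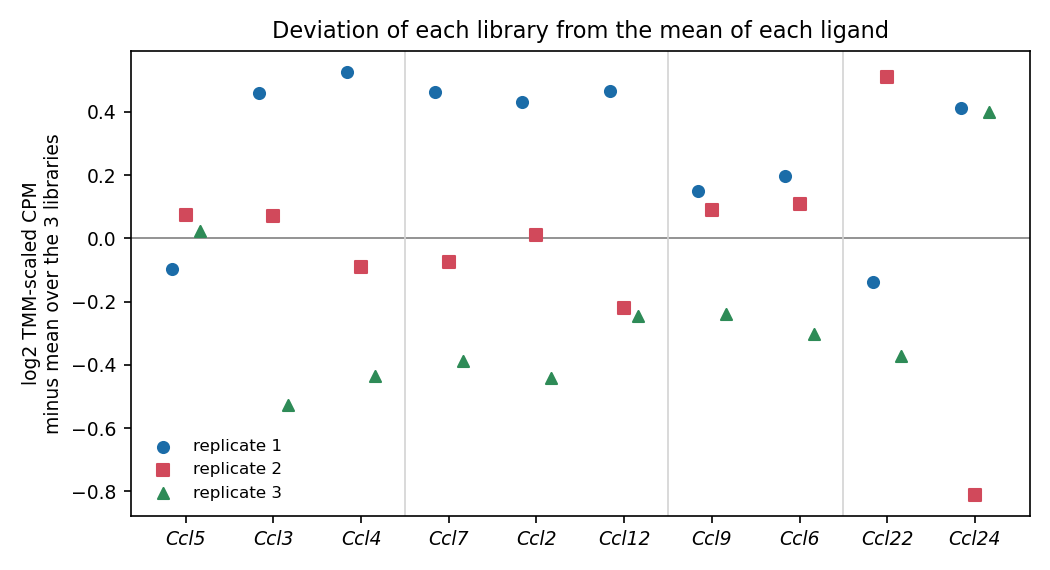
Deviation of each library from the mean of each ligand over the 3 libraries, as log2 of TMM-scaled CPM. Ccl3, Ccl4, Ccl7 and Ccl2 run in the order replicate 1, 2, 3 from top to bottom, Ccl5 stays within 0.10 of 0, and Ccl24 is low in replicate 2 alone.

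Some other chemokine genes moved with this spread. Of the CXC, CX3C and XC chemokines and Pf4, 9 of 12 were tested, and 8 of those were lowest in replicate 3, against 33.8% of all genes tested. The other was lowest in replicate 2. Further CC ligands did not share this direction: the 2 tested, Ccl8 and Ccl25, were both lowest in replicate 2. The interferon-induced T cell attractant Cxcl10 had 782, 329 and 288 TPM, and like Ccl3 and Ccl4 was highest in replicate 1. The neutrophil attractant Cxcl2 had 94.8, 117 and 18.9 TPM, and was high in replicates 1 and 2. Macrophage markers did not share it either: 2 of 12 were lowest and 7 were highest in replicate 3, against 33.8% and 34.8% of all genes tested. The summed TPM of these markers was 5663, 5341 and 5705. Replicate 3 was not the shallowest library. The part of these in the spread of the ligands was not tested. In bulk RNA, fewer cells that express a gene and less RNA per cell cannot be told apart.

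The genes whose pattern over the 3 libraries was nearest to a ligand were sought by the distance of centred log2 CPM among 9825 protein-coding genes whose count averaged 100 or more. For Ccl24, the ligand with the largest range, the nearest included Pde6b, Ccl8, Slit1 and Fanca, at distances of 0.02 to 0.17. Ccl8 encodes another monocyte chemoattractant protein, in the same gene cluster as Ccl2, with 134, 53.7 and 120 TPM, and like Ccl24 it was low in replicate 2. The pattern of Ccl24 itself rests on 13, 11 and 23 counts. Near the other ligands, and named after their values were seen, stood the lipopeptide receptor gene Tlr2 for Ccl9 (distance 0.005), the activation marker Cd69 for Ccl4 (0.067), the cytokine Il15 for Ccl12 (0.038) and the Toll-like receptor 4 co-receptor Cd14 for Ccl22 (0.056). Of these genes only Tlr2 was the nearest to its ligand. The nearest were Abtb2 for Ccl4 (0.055), Ncapg2 for Ccl12 (0.023) and Spred2 for Ccl22 (0.033). With 3 libraries these distances are descriptions of nearness alone.

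The annotation gives Ccl3, Ccl4 and Ccl7 a single transcript each. For 9 of the 10 ligands, protein-coding transcripts held over 50% of the TPM of the gene in every library and in both deposited quantifications. Retained-intron or other noncoding transcripts held 1.02% of the TPM of Ccl2, 0.139% of Ccl5 and 2.10% of Ccl12 as means over libraries.

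Ccl9 was the exception. Its noncoding transcript Ccl9-202, of 398 bases, held 46.5%, 52.2% and 53.9% of the TPM of the gene in replicates 1, 2 and 3, and 50.9 ± 3.89% on average (SD, n = 3). Of the expected counts the same transcript held 5.06%, 6.60% and 7.13%. The coding transcript Ccl9-201 has 3006 bases, so the same number of reads gives the shorter transcript a far larger TPM. In the second quantification Ccl9-202 held 61.6 ± 1.09% of TPM and 9.47 ± 0.759% of counts. Ccl9-201 alone was measured at 76.84, 68.83 and 57.01 TPM, a mean of 67.6 ± 9.98 TPM. With coding transcripts alone Ccl2 exceeded Ccl9 by 1.14 ± 0.25, which was called, and Ccl9 minus Ccl12 was -0.35 ± 0.32, which was not. The place of Ccl9 among the ligands therefore depended on whether the short transcript was counted.

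The 2 Ccl9 transcripts share exons 2 and 3 and the start of exon 4, which ends after 178 bases in Ccl9-202 and runs on to 2577 bases in Ccl9-201. They also differ in the first exon, which for Ccl9-202 is 39 bases long, at mm10 chr11:83577104-83577142 on the minus strand. The first exon of Ccl9-201 lies at chr11:83578389-83578636. The junctions below, read from mm10, show the last 39 bases of the first exon in capitals and the first 30 bases of the second exon in lower case, since reads over these capitals are those that tell the 2 transcripts apart at this end.
Ccl9-201: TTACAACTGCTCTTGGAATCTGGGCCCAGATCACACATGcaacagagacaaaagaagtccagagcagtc
Ccl9-202: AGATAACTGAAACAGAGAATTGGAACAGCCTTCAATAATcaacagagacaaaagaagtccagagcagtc

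Ccl6 also has noncoding transcripts, and here the quantifications parted. The retained-intron transcript Ccl6-202 held 8.67 ± 3.29% of the TPM of Ccl6 in the first quantification and 36.8 ± 0.701% in the second. In counts its share was 4.17 ± 1.64% in the first and 20.9 ± 0.783% in the second. Both values were above 0 in every library, and their size depended on the quantification.

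**Figure D3:**
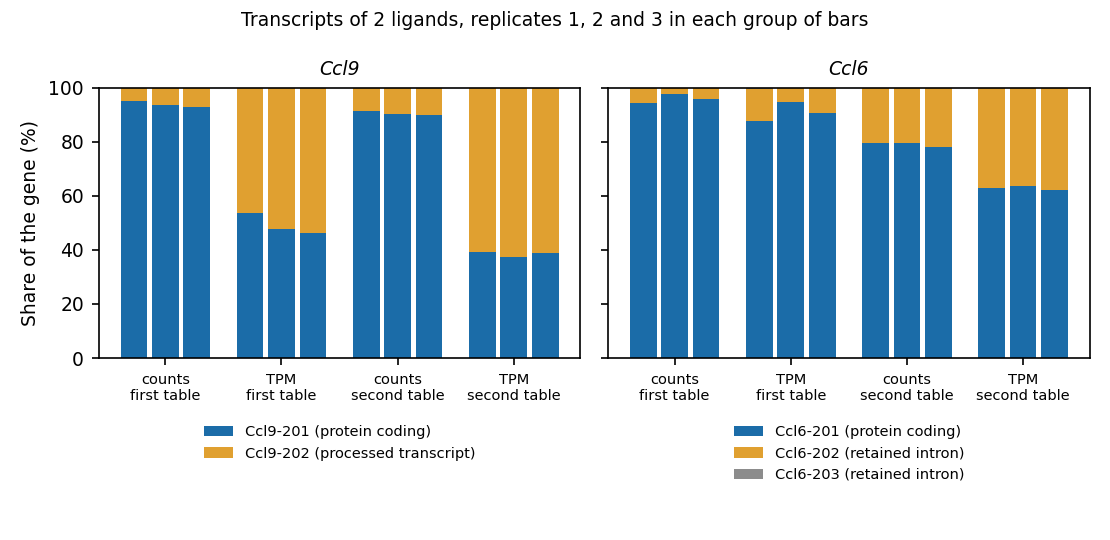
Share of Ccl9 and Ccl6 held by each annotated transcript (percent), in counts and in TPM, in the first and the second deposited quantification, with 1 bar for each of replicates 1, 2 and 3. Ccl9-202 takes 5.06 to 7.13% of counts but 46.5 to 53.9% of TPM in the first table, and Ccl6-202 takes a larger share in the second table than in the first.

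At the gene level both quantifications gave like values. After each was rescaled to its nuclear protein-coding genes, the log2 ratio of the second to the first lay between -0.08 (Ccl22) and 0.26 (Ccl9) for the detected ligands, with 0.22 for Ccl6 and 0.36 for Ccl24. None of the 10 ligands differed by more than 2-fold, against 0.618% of 9068 detected protein-coding genes. The deposited posterior SD of the expected count was 0 for every ligand in every library, so no reads of these genes were divided with another gene by model. The coding sequences of the ligands, aligned in 45 pairs, were 56.5 to 70.7% identical. Ccl6 and Ccl9 were the most alike at 70.7%, followed by Ccl3 and Ccl4 at 69.6% and Ccl7 and Ccl12 at 68.1%.

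Of the ligands, 8 lie on chromosome 11, in 2 groups. The first runs Ccl2, Ccl7, Ccl11, Ccl12, Ccl8 and Ccl1, over 141 kb from the left end of Ccl2 to that of Ccl1. Ccl11, the eosinophil attractant eotaxin between Ccl7 and Ccl12, had 0 counts in every library, as did Ccl1. The second group, which starts 1490 kb from Ccl2, runs Ccl5, Ccl9, Ccl6, Ccl3 and Ccl4, and all of its 5 genes were detected. Levels within the second group ranged from 44.6 TPM for Ccl6 to 4801 TPM for Ccl5. Ligands at 0 counts and ligands above 100 TPM thus lay side by side on the chromosome.

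**Figure D4:**
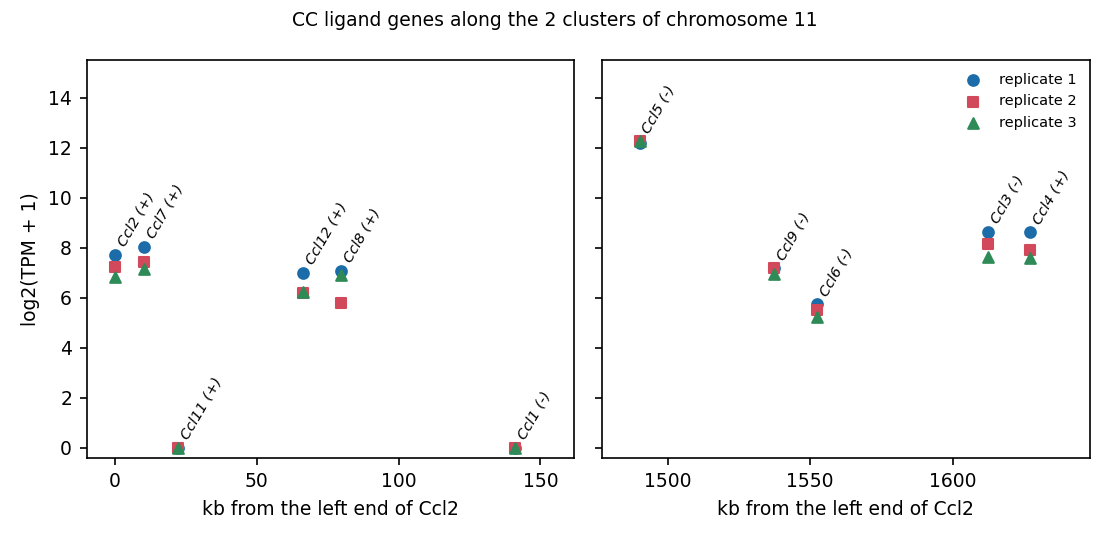
CC ligand genes by the distance of their left end from that of Ccl2 in kb, with log2(TPM + 1) in replicates 1, 2 and 3 and the strand in brackets. Ccl11 and Ccl1 lie at 0 between and beside genes with 53.7 to 263 TPM, and Ccl5 stands above its 4 neighbours.

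An annotated antisense gene overlaps 2 of the ligands. Gm17268 over Ccl2 had 0 counts in every library, and E230016K23Rik over Ccl6 had 4, 2 and 1. The sources used here do not say whether counting used strand.

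Promoter sequences, from 250 bases before to 50 after the start site, were available from RefSeq (GRCm38.p6) for 5 of the 10 ligands: Ccl3, Ccl6, Ccl9, Ccl12 and Ccl22. They were searched for 4 motifs. The NF-kB pattern GGGNNNNNCC, on both strands, was found in those of Ccl9 and Ccl22, and 50.8% of 32851 promoters hold it. The AP-1 pattern TGANTCA, on both strands, was found in Ccl9, and 7.81% of promoters hold it. The TATA box TATAAA on the coding strand was found in Ccl9 and Ccl12, and 8.32% of promoters hold it. The interferon response pattern GAAANNGAAA, on both strands, was found in none of the 5, and 3.44% of promoters hold it. A match describes letters only and says nothing of binding. The promoters of Ccl9, Ccl12 and Ccl22 are shown because they hold the matches, which are in capitals. Mean levels of their genes ran from 137 to 1.80 TPM. The highest of the 5 genes searched, Ccl3 at 293 TPM, had no match to any of the 4 motifs, and neither had Ccl6. The promoters shown lie at chr11:83578587-83578886 (minus strand), chr11:82101595-82101894 (plus strand) and chr8:94745434-94745733 (plus strand). In Ccl9 the capitals are, in order, the TATA box, the AP-1 pattern and the NF-kB pattern on the opposite strand. In Ccl12 they are the TATA box, 31 bases before the start site, and in Ccl22 both are NF-kB patterns on the opposite strand. The TATA box match of Ccl9 lies farther from the start site, beginning at base -92.
Ccl9: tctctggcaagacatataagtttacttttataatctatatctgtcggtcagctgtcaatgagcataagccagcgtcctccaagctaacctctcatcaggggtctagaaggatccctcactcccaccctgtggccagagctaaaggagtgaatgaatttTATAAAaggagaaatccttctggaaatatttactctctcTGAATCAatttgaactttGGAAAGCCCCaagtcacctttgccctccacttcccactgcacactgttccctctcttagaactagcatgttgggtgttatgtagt
Ccl12: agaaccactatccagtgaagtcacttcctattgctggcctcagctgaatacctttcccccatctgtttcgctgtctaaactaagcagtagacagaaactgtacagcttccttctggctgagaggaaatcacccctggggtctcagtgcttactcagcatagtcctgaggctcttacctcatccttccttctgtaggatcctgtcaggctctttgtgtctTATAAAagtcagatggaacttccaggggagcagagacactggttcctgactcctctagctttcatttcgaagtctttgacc
Ccl22: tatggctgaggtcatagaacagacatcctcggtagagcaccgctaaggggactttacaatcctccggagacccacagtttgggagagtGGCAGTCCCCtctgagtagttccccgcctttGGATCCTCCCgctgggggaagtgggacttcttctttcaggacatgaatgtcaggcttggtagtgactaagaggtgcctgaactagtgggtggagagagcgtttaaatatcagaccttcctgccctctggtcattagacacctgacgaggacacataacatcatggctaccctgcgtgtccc

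The promoters of the neighbours Ccl6 and Ccl9 shared a stretch around the start site, though not at the same place. Counted from the start site, the stretch began at base -59 in Ccl6 and at base -18 in Ccl9. In a local alignment 58 of 67 aligned bases were identical (86.6%), with 7 further bases in gaps, at a score of 38.5. The best of the other 9 promoter pairs scored 11.5. The stretches are shown, with identical bases in capitals, because these are the 2 ligands with the most similar coding sequences. Both genes were lowest in replicate 3, which is not particular to them, since 8 of the 10 ligands were. They lie on the minus strand at chr11:83593073-83593146 and chr11:83578588-83578654.
Ccl6: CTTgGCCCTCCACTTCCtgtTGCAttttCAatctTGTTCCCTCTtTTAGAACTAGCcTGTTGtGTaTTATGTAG
Ccl9: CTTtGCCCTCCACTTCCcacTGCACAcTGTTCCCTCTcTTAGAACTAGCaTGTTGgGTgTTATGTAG

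Chemokine messages are known to be short-lived, partly through AU-rich elements with the core ATTTA in the region after the stop codon. This core occurred 5 times in the 167 bases after the stop codon of Ccl12-201, 5 times in the 409 bases of Ccl3-201, 5 times in the 2465 bases of Ccl9-201 and 4 times in the 943 bases of Ccl6-201. It occurred 2 times each in Ccl4, Ccl7 and Ccl22, 1 time in Ccl2, and was not found in the 199 bases of Ccl5-201 or the 858 bases of Ccl24-201. Among 8922 detected protein-coding genes, 65.5% had at least 1 and 18.4% had at least 5. Per 100 bases the core occurred 0.203 times in Ccl9, 0.110 times in Ccl22, and 0.364 to 0.662 times in Ccl2, Ccl4, Ccl6 and Ccl7. It came to 2.99 for Ccl12 and 1.22 for Ccl3, against 0.185 over all 8922 genes. A 30-base window with 2 cores is shown for each of these densest ligands, with the cores in capitals, at chr11:83648085-83648114 (minus strand) for Ccl3 and chr11:82103325-82103354 (plus strand) for Ccl12. The Ccl3 window holds 2 cores that follow each other directly.
Ccl3: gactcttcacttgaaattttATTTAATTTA
Ccl12: ATTTAaacaaacttgcttaaataatATTTA

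Receptors of these ligands were low in the same libraries. Ccr1, the receptor of Ccl3, Ccl5, Ccl6 and Ccl9, had 5.28, 4.84 and 3.63 TPM. Ccr2, the receptor of Ccl2, Ccl7 and Ccl12, had 2.14, 2.10 and 1.59 TPM. Both were thus far below the ligands they bind. Ccr3, the receptor of Ccl24, stayed under 1 TPM at 0.45, 0.38 and 0.32, and Ccr4, the receptor of Ccl22, had 0, 0 and 2 counts.

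Of 5 atypical chemokine receptors, which bind chemokines without G protein signalling, 1 was detected. Ccrl2, which presents the chemoattractant chemerin, had 54.9, 50.75 and 24.2 TPM and was lowest in replicate 3. Of 12 further CC ligands 2 were detected: Ccl8, named above, and Ccl25, a ligand of CCR9 known from thymus and gut, at 2.60, 1.99 and 2.86 TPM. In the same list 7 had 0 counts in every library, which at these depths allows up to 0.104, 0.0548 and 0.0601 CPM.

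Genes that modify or hold chemokines were detected for 6 of 9. They were led by Srgn, the proteoglycan core of secretory granules, at 104, 82.2 and 108 TPM, and the membrane protease Mmp14 at 68.0, 51.7 and 70.2 TPM. The heparan sulfate proteoglycan Sdc4, whose chains bind chemokines, had 69.7, 56.4 and 42.8 TPM. The tyrosylprotein sulfotransferases Tpst2 and Tpst1, which sulfate the amino termini of chemokine receptors, averaged 14.9 ± 2.64 and 13.9 ± 2.22 TPM (SD, n = 3). The macrophage elastase Mmp12, which can cleave chemokines, had 9.22, 5.34 and 3.87 TPM. Replicate 3 was lowest for Sdc4 and Mmp12 but not for Srgn, Mmp14 or either sulfotransferase.

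All 12 genes of receptor signalling were detected. The GTPase Rac2, the inhibitory G protein subunit Gnai2 and the beta subunit Gnb1 had means of 213 ± 47.6, 186 ± 6.36 and 133 ± 15.4 TPM (SD, n = 3). Rgs1, which shortens G protein signals, had 215, 173 and 50.3 TPM, lowest in replicate 3 like most of the ligands. The beta-arrestin Arrb2, by which receptors are desensitised, averaged 92.5 ± 13.2 TPM and was highest in replicate 3. In this list 4 of 12 were lowest in replicate 3, against 33.8% of all genes tested. In replicate 1, 7 of them were lowest, against 33.5%.

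The libraries matched the labelled cell type. All 12 macrophage markers were detected, among them Lyz2 at 3194 ± 13.1 TPM, Adgre1 at 632 ± 76.8 TPM and Csf1r at 130 ± 27.2 TPM (SD, n = 3). Of markers of other cells that make or answer CC chemokines, 2 of 10 were detected for neutrophils (S100a8 and S100a9), 1 of 11 for T and NK cells (Cd4), 1 of 6 for B cells (Cd79b) and 0 for dendritic cells, mast cells and basophils, stromal cells and eosinophils. Their summed TPM was at most 10.4 for neutrophils, 14.2 to 16.7 for T and NK cells, and at most 1.93 for any other list. Annotated genes received 28759407, 54709008 and 49878183 expected counts in replicates 1, 2 and 3, so replicate 1 was the shallowest library.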

How the data were processed

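All values come from tables the authors deposited for 3 libraries. Per the file headers, the first tables, per gene and per transcript, are laid out like RSEM output: expected count with posterior SD, TPM with credible bounds (signal), and the percent of a gene's TPM in each transcript. A second deposited table, per transcript, is laid out like kallisto output and gives TPM and estimated counts. Text deposited beside the libraries names mm10 and GENCODE M21. The sources used here do not name the aligner, quantifier, versions or strand setting. The 26345 rows that name no annotated gene took 0.774%, 0.207% and 0.167% of counts and were left out of counts tested. TPM was used as deposited, over all rows.

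TMM scaling of the rounded counts used edgeR 4.0.16 (R 4.3.3), which also gave dispersions with an intercept alone, since 1 group allows no quasi-likelihood contrast. The chi-square test used genes whose count averaged 10 or more and a threshold of 0.05. Levels were compared as log2(TPM + 1). Further tools were Biopython 1.88, scipy 1.17.1, numpy 2.4.6, pandas 2.3.3 and matplotlib 3.10.9 in Python 3.11.15. Limits from 0 counts use 3 counts and cover counting error only. In simulated counts for the comparison of replicates, the chi-square test called 1 of 13290 genes with counting noise alone. Of 50 genes per fold changed in 1 library, all with a mean of at least 100 counts, 35 were called where the change was 1.2-fold, 47 where it was 1.5-fold and 50 where it was 2-fold. All 10 ligands are named, with up to 5 detected genes of highest mean TPM per further list and the 5 genes nearest in pattern to the ligand of largest range. Ccr3, Ccr4, the genes named as near to other ligands and Mmp12 were chosen for naming with their values in view. Some genes within these rules are left out of the text. The ligands, lists and tests were chosen with earlier results of these data known. As alternatives, each replicate was left out, the pseudocount set to 0.1, detection set to any count, 0.1 TPM or 5 TPM, and the second table used. Library sizes were also taken from totals or DESeq2 1.42.0, the limit on counts dropped, and TPM rescaled to protein-coding nuclear genes. Coding transcripts alone, other scalings of the order of libraries, and the second table for transcript shares were added after seeing the data.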

Additional observations from a re-analysis of the deposited data

How the results depend on the processing

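No paired analysis was possible because all libraries form 1 group. Leaving out each replicate gave 3 to 6 called pairs of the 7 related ones, against 5 with all, 4 to 6 called neighbours of 9, 9 detected ligands each time and 8 to 9 ligands beyond counting noise. The count of 3 was without replicate 1. The difference Ccl2 minus Ccl9 was 0.14 with all libraries, from -0.063 without replicate 1 to 0.28 without replicate 3, and -0.17 in the second table, and Ccl9 minus Ccl12 turned negative, to -0.35, with protein-coding transcripts alone; neither had been called. The cause was not tested, apart from the short Ccl9 transcript, which that last setting leaves out. Ccl12 minus Ccl6 was 0.71 ± 0.33 in the second table, below 3 SD. Detection covered 8 ligands in the second table or at 5 TPM, and 10 at 0.1 TPM or any count. The share of all genes called by the chi-square test ranged from 40.4% to 69.7% over settings. Levels of all 10 ligands were higher in TPM rescaled to nuclear protein-coding genes, and lower in the second table before rescaling. In that table, the deviation of detected genes from their own means over the libraries had medians of 0.14, 0.21 and -0.35 (log2) in replicates 1, 2 and 3, so its levels were compared after rescaling. Ccl22 and Ccl24, with 154 and 13 counts in replicate 1, are limited by depth, and 3 libraries of 1 donor entry limit every SD.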
